A study of Mus musculus with 4 samples.

Results

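The p53 genes described here are Trp53, which encodes the transcription factor p53, the genes that control it and the genes it is known to activate, 34 in all among the 23771 gene symbols that matched the probes of the array. They were taken as a list of names, and their 60 probes were found through the RefSeq accession that the files give for each probe. By role the list held 5 genes of p53 and its feedback control, 9 of cell cycle arrest, 14 of apoptosis, 4 of DNA repair and 2 of metabolism. The RNA was that of cultured S-180 cells, a sarcoma line of the mouse, grown in medium with 10% serum. The cells had been kept for 12 h with 20 µM fluoxetine, a serotonin reuptake inhibitor used as an antidepressant (2 arrays), or for the same 12 h without it (2 arrays). The labels call the samples of each group biological replicates but do not say whether the cultures were separate, so p-values measure only the spread between these samples. No vehicle for the control cells is named, and 1 line at 1 dose and 1 time was studied.

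In unstressed cells p53 is kept scarce because MDM2 marks it for destruction and MDM4 masks its activating part. DNA damage, nucleolar stress or oncogene signals release p53, which then activates genes that stop the cell cycle, repair DNA, adjust metabolism or start apoptosis, and also activates Mdm2, which closes a feedback loop. Much of this control acts on the p53 protein, which these arrays do not measure, and several of the target genes also answer to other stress transcription factors.

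Values below are scaled signals, the processed spot intensity of an array brought to a common 75th percentile over the 4 arrays, and can be compared between arrays for 1 probe but not between probes. Each gene is represented by its brightest probe well above background. The change is the log2 difference, fluoxetine minus control, with its standard error from limma after ±, from 2 arrays in each group. A gene is said to have risen or fallen, or to be called, at a Benjamini-Hochberg adjusted p under 0.05 over all 13537 genes tested. Between 51.7% and 53.5% of spots were well above background on each array and 0 were saturated. The 4 arrays shared 1 slide and 1 scan, and precision is limited by having 2 arrays a group. Of 14 mesenchymal markers, 8, among them Vim, were well above background on all arrays, while Col3a1, Thy1 and Pdgfrb were at background on all. Of 10 epithelial markers 6 were above background on all arrays, among them Krt8 and Krt18, and Cdh1 was not. The summed scaled signal of the epithelial list was 79076 and 81105 on the fluoxetine arrays, against 91284 and 96893 on the control arrays at its lowest and highest. Such a sum is led by its brightest probes. Krt8 and Krt18 made up most of the epithelial sum, and neither was called (limma adjusted p = 0.121 and 0.0635). Of the 7 epithelial markers tested, 4 changed upward and 3 downward. For the mesenchymal list the sum was 48955 and 49336 with fluoxetine, against 51748 and 56049 in control. Of 14 leukocyte markers 6 were above background on all arrays and 7, among them Ptprc, Adgre1 and Lyz2, on none. The leukocyte sum was 26817 and 30343 with fluoxetine, against 16117 and 17466 in control, and without the lysosomal gene Cd68 it was 6300 and 6452 against 8155 and 8519. Much of that last difference was Itgam (506 and 519 with fluoxetine, against 2011 and 1973 in control), whose other probe was at 0.83. Of the 6 leukocyte markers tested, 2 changed upward and 4 downward. The endothelial sum was 185 and 202 with fluoxetine, against 157 and 185 in control, with 6 of 8 markers at background on all arrays. The part of these marker genes in the results below was not tested.

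Of the 34 genes, 30 were tested, all of them well above background on all 4 arrays, and 4 (Btg2, Pmaip1, Eda2r and Tigar) were not well above background on any array. With fluoxetine, 13 of the 30 rose, against 16.8% of all genes tested, and 2 fell, against 10.1%. In either direction 15 of the 30 were called, against 26.9% of all genes. The rises were led by the apoptosis gene Bbc3 (2.28-fold), Trp53 itself (1.92-fold), the cyclin genes Ccng1 (1.71-fold) and Ccng2 (1.64-fold), the kinase gene Plk3 (1.61-fold) and Trp53inp1 (1.58-fold). The other 7 that rose were Cdkn1a, Sfn, Mdm2, Tnfrsf23, Plk2, Mdm4 and Fas. The falls were in Gadd45g and Aen. By size alone, 6 genes were at least 1.5-fold higher (11.3% of all genes) and 0 were at least 1.5-fold lower (8.63% of all genes). The arrays of both groups did not overlap for 24 of the 30 (72.5% of all genes), 18 with fluoxetine above control (41.6%) and 6 below (30.9%). The median change was 0.28 over the 30 and 0.06 over all genes tested, and 19 of the 30 lay above the median of all genes. In RNA from whole cultures, fewer cells of a type and less RNA per cell cannot be told apart.

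The direction of all 15 calls was the same in every alternative run, and the calls themselves were not. For many of these runs the direction could not differ. Filters on dim probes, an intensity trend and a term for the replicate number left the change of these genes as it was. For all 15 the groups did not overlap, so leaving out 1 array could not turn the sign. In limma 0 of the 30 were called without fluoxetine 1 and 0 without fluoxetine 2, with 15 and 14 of them at an unadjusted p under 0.05, and 2 (Bbc3 and Trp53) were called without control 1. When arrays were scaled to their median, every change was 0.21 higher, 18 of the 30 rose and 1 fell, and the calls over all genes split into 5485 higher and 812 lower, against 2272 and 1371 as reported. Values between −0.21 and 0 thus turn positive under that scaling. With normexp background correction of the median signal Fas, Plk2, Mdm4 and Aen were not called, and without a filter on dim probes 0 of the 30 were called in limma, with 17 at an unadjusted p under 0.05.

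**Figure D1:**
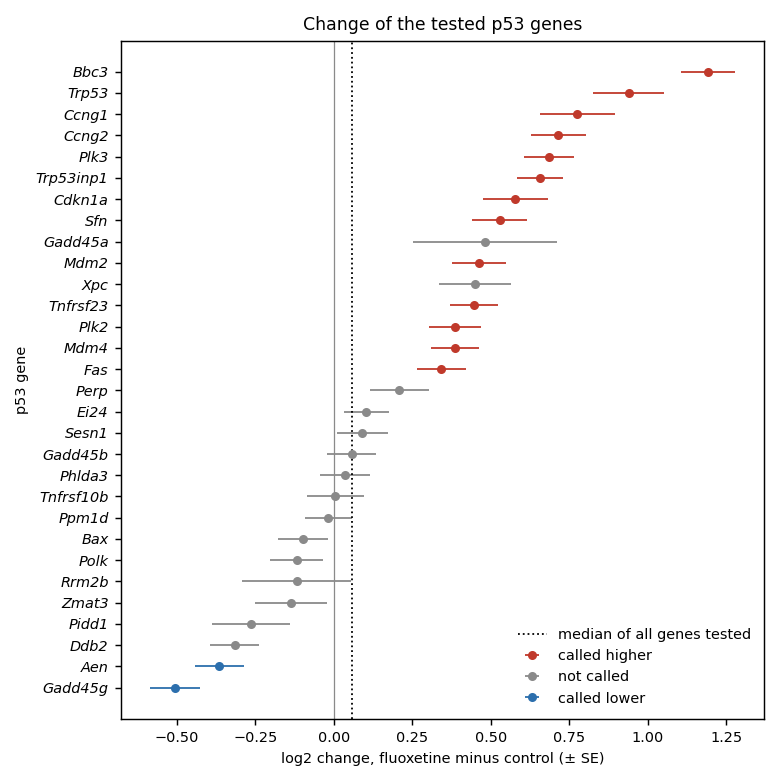
Log2 change, fluoxetine minus control, of the 30 tested p53 genes (points, horizontal axis) with the standard error from limma (bars), coloured by call, and the median of all genes tested (dotted line). Bbc3 (1.19) and Trp53 (0.94) stand at the top, Gadd45g (−0.50) and Aen (−0.36) at the bottom.

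Of the 5 genes of p53 and its feedback control, 4 rose and Ppm1d did not pass, with a median change of 0.46. Over all genes tested 16.8% rose, and the median change was 0.06. Trp53 had scaled signals of 308 and 295 with fluoxetine, against 171 and 144 in control. Both fluoxetine arrays were above both control arrays, and its rise of 0.94 ± 0.11 (adjusted p = 0.0165) lay at percentile 96.2 of all genes. Mdm2, the ubiquitin ligase that limits p53 and is itself a p53 target, had 5394 and 5269 with fluoxetine, against 3704 and 4044 in control. The groups did not overlap, and the rise was 0.46 ± 0.08 (adjusted p = 0.0307). Ccng1, a p53 target whose product, cyclin G1, brings a phosphatase to MDM2, had 3689 and 3746 with fluoxetine, against 1977 and 2387 in control. It rose by 0.77 ± 0.12 (adjusted p = 0.0227), with the control arrays further from each other than the fluoxetine arrays. Mdm4, which encodes the inhibitory partner of MDM2, had 287 and 278 with fluoxetine, against 212 and 220 in control, and rose by 0.39 ± 0.08 (adjusted p = 0.0343). Its 3 other probes above background were at 0.24, −0.23 and −0.35, and averaged over all of them its change was 0.01. Ppm1d, which encodes a phosphatase that switches off p53 and its activating kinases, had 570 and 542 with fluoxetine, against 562 and 563 in control. Its groups overlapped (change −0.02 ± 0.08, adjusted p = 0.877).

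RefSeq promoter windows (assembly GRCm38.p6, 250 bases before to 50 after an annotated start) were at hand for 26 of the 34 genes. The half-site of the p53 consensus, which reads the same on both strands as a pattern and is 10 bases long, was found in the windows of 11 of these 26 (42.3%), against 9.55% of all genes with a window. The shown windows belong to called genes that hold it, each 5′ to 3′ on the strand of its gene with the half-sites in capitals.
Trp53, chr11:69580109-69580408, plus strand: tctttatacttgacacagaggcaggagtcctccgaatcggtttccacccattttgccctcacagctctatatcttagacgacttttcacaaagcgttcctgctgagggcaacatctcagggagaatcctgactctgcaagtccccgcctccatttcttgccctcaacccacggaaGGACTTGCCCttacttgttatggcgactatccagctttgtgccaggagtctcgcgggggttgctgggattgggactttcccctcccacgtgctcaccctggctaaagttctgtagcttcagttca
Mdm2, chr10:117710709-117711008, minus strand: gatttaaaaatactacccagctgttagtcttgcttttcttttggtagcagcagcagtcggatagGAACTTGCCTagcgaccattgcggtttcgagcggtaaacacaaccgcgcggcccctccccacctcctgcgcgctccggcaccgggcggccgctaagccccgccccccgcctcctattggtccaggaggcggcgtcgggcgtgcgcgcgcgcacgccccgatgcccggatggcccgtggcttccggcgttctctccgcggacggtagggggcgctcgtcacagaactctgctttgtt
Ccng1, chr11:40755237-40755536, minus strand: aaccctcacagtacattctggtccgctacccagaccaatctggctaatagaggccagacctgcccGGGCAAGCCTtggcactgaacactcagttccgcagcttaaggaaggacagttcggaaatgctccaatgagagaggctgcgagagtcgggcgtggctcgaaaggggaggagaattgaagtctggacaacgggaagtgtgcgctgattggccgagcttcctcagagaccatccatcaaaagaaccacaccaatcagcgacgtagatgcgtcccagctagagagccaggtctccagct
Cdkn1a, chr17:29090729-29091028, plus strand: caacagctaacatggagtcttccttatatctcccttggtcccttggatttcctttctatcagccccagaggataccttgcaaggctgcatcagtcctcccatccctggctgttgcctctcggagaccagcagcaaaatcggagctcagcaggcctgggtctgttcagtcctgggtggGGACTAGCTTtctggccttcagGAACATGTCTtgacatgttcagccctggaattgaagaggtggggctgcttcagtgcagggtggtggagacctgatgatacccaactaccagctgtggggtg
Aen, chr7:78895808-78896107, plus strand: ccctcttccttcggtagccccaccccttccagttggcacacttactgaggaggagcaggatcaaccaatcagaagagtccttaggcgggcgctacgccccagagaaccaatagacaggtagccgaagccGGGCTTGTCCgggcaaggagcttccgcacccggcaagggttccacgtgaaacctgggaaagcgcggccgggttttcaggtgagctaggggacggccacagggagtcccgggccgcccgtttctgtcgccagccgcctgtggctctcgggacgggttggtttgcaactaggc
The half-site began 75 bases before the start in Trp53, 186 in Mdm2, 185 in Ccng1 and 121 before the annotated start that the shown Aen window was built on. The same Aen half-site lies 11 bases after the other annotated start of that gene. Cdkn1a held 2, at 73 and 51 bases before the more upstream of its 2 annotated starts, and the window of its other start held 0. From which of these starts the RNA read by the called Cdkn1a probe came was not tested. Of the 11 tested genes with a half-site in a window, 4 rose, 1 fell and 6 did not pass, with a median change of 0.10. Counts among the 12 tested genes whose windows lacked one were 8 higher, 1 lower and 3 uncalled, with a median of 0.39. Over all genes tested 16.8% rose and 10.1% fell, with a median of 0.06. Bbc3, which rose most of the p53 genes, lacked a half-site in its 3 windows. The difference between the genes with and without a half-site was not tested. A match is a description of letters in these windows, and p53 sites in introns or further away lie outside them.

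**Figure D2:**
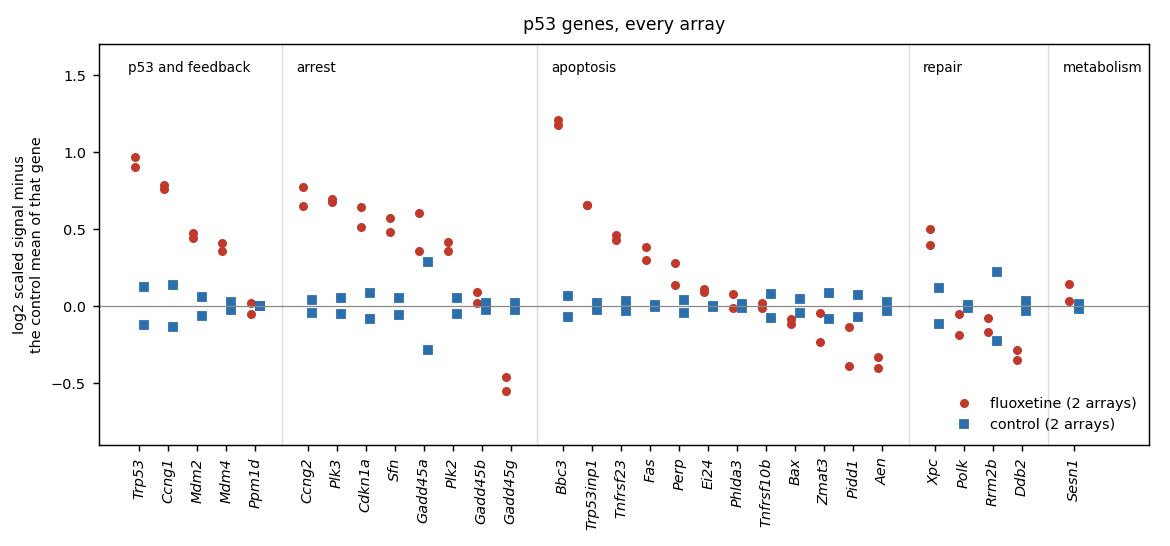
Scaled signal of every array for the 30 tested p53 genes, as log2 minus the control mean of that gene (vertical axis), grouped by role along the horizontal axis; circles are the 2 fluoxetine arrays and squares the 2 control arrays. The fluoxetine arrays of Bbc3, Trp53 and Ccng1 sit above both control arrays, those of Gadd45g and Aen below, and the control arrays of Gadd45a (1005 and 677) lie far apart.

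Among the arrest genes 8 of 9 were tested: 5 rose, 1 fell and 2 did not pass, with a median change of 0.51. Over all genes tested 16.8% rose and 10.1% fell, with a median of 0.06. Cdkn1a, which encodes the cyclin-dependent kinase inhibitor p21, had 802 and 733 with fluoxetine, against 485 and 544 in control. The groups did not overlap, and the rise was 0.58 ± 0.10 (adjusted p = 0.0289), or 1.49-fold. Another Cdkn1a probe was not well above background on any array. Ccng2, which encodes cyclin G2, an unusual cyclin that slows the cycle, had 4604 and 4229 with fluoxetine, against 2613 and 2765 in control. It rose by 0.72 ± 0.09 (adjusted p = 0.0166), and its other probe also rose (0.96 ± 0.20, adjusted p over all probes = 0.041).

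The polo-like kinase genes Plk2 and Plk3 both rose. Plk3, a stress-activated kinase, had 4815 and 4748 with fluoxetine, against 2868 and 3078 in control, a rise of 0.69 ± 0.08 (adjusted p = 0.0158). Plk2, a kinase of centriole duplication, had 686 and 712 with fluoxetine, against 515 and 554 in control, and rose by 0.39 ± 0.08 (adjusted p = 0.0397). Sfn encodes the sigma member of the adaptor family that holds mitotic kinases in the cytoplasm, and is otherwise typical of epithelial cells. It had 20787 and 19530 with fluoxetine, against 13429 and 14533 in control, and rose by 0.53 ± 0.09 (adjusted p = 0.0259). Of the 7 epithelial markers tested, 1 (Krt14, −2.15) fell and 6 did not pass, with 4 positive and 3 negative changes and a median of 0.07. Over all genes tested 10.1% fell.

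The Gadd45 genes encode small proteins that bind cyclin-dependent kinases and stress kinases, and Gadd45a is the member best known as a p53 target. Gadd45g had 8306 and 7807 with fluoxetine, against 11252 and 11591 in control, and fell by 0.50 on the log2 scale (SE 0.08, adjusted p = 0.0237). Gadd45a had 1256 and 1057 with fluoxetine, against 1005 and 677 in control. Its fluoxetine arrays were both above control, but with control arrays this far apart the change of 0.48 ± 0.23 did not pass (adjusted p = 0.186), and it was 0.20 without control 2 and 0.77 without control 1. Gadd45b had 7753 and 7357 with fluoxetine, against 7135 and 7378 in control, so its groups overlapped (0.06 ± 0.08, adjusted p = 0.601). Differences between the changes of the 3 genes were not tested. Both probes of Btg2, an antiproliferative p53 target, were not well above background on any array.

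Among the apoptosis genes 12 of 14 were tested: 4 rose, 1 fell and 7 did not pass, with a median change of 0.07. In either direction 41.7% were called, against 26.9% of all genes (16.8% higher and 10.1% lower). The median of all genes tested was 0.06, close to that of this role. Bbc3 encodes PUMA, a BH3-only protein that neutralises the survival proteins of the BCL2 family. It had 1918 and 1964 with fluoxetine, against 811 and 890 in control. Its rise of 1.19 ± 0.09 (adjusted p = 0.0105) lay at percentile 98.1 of all genes, and it ran from 1.12 to 1.26 as single arrays were left out. Pmaip1, which encodes NOXA, another BH3-only p53 target, was not well above background on any array. Bax, which encodes the pore-forming protein that such BH3-only proteins release, had 5509 and 5383 with fluoxetine, against 5637 and 6015 in control. It did not pass (−0.10 ± 0.08, adjusted p = 0.398), and its other probe was at 0.26 ± 0.09 (adjusted p over all probes = 0.108).

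Trp53inp1, which encodes a stress protein that promotes p53 phosphorylation and autophagy, had 4809 and 4821 with fluoxetine, against 3007 and 3099 in control. The arrays of each group lay close together, and the rise was 0.66 ± 0.07 (adjusted p = 0.0149). Of the death receptor genes, Fas had 1064 and 1129 with fluoxetine, against 868 and 861 in control, and rose by 0.34 ± 0.08 (adjusted p = 0.0447). Another Fas probe was not well above background on any array. Tnfrsf23, which in the mouse encodes a decoy receptor for the death ligand TRAIL, had 5725 and 5844 with fluoxetine, against 4343 and 4149 in control, and rose by 0.45 ± 0.08 (adjusted p = 0.0269). Tnfrsf10b, the mouse TRAIL receptor that carries the death signal, had 5716 and 5585 with fluoxetine, against 5330 and 5944 in control, and did not pass (0.01 ± 0.09, adjusted p = 0.969). The difference between the changes of these TRAIL receptor genes was not tested. Eda2r, a receptor of the same family, was not well above background on any of its 3 probes.

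Aen, which encodes a nuclease that acts in apoptosis, had 4206 and 4422 with fluoxetine, against 5443 and 5661 in control, and fell by 0.36 on the log2 scale (SE 0.08, adjusted p = 0.0402). Its 3 other probes above background were at −0.29, 0.23 and −0.11. The remaining apoptosis genes did not pass, with changes from −0.26 to 0.21. They were Perp, a membrane protein gene of desmosomes (0.21 ± 0.09), Ei24, an endoplasmic reticulum protein gene (0.10 ± 0.07), Phlda3, which encodes an inhibitor of the survival kinase AKT (0.04 ± 0.08), Zmat3, an RNA-binding protein gene (−0.14 ± 0.11), and Pidd1, which encodes the scaffold that activates caspase-2 (−0.26 ± 0.12).

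As reported, 0 of the 4 repair genes were called by limma, against 26.9% of all genes. Xpc was at an unadjusted p of 0.0161 and Ddb2 at 0.0149, and the median change of the 4 was −0.12. Xpc and Ddb2 both lay close to the threshold: of 14 alternatives Xpc was called higher in 7 and Ddb2 lower in 4. Xpc and Ddb2 encode the damage sensors of nucleotide excision repair. Xpc had 1703 and 1589 with fluoxetine, against 1111 and 1305 in control, with groups that did not overlap and a change of 0.45 ± 0.11 (adjusted p = 0.056). Its other probe rose by 0.46 ± 0.10 (adjusted p over all probes = 0.0455). Ddb2 had 1204 and 1153 with fluoxetine, against 1434 and 1499 in control, a change of −0.32 ± 0.08 (adjusted p = 0.0534), and its other probe was at 0.11 ± 0.12. Polk, a polymerase gene for copying past damage, had 2113 and 1929 with fluoxetine, against 2177 and 2206 in control (−0.12 ± 0.09). Rrm2b, which encodes the p53-inducible subunit of ribonucleotide reductase, had 132 and 141 with fluoxetine, against 173 and 127 in control, so its groups overlapped (−0.12 ± 0.17). Of the metabolism genes, Sesn1, which encodes a sestrin that restrains the growth regulator mTORC1, had 969 and 898 with fluoxetine, against 885 and 866 in control, and did not pass (0.09 ± 0.08, adjusted p = 0.437). The probe of Tigar, which encodes a phosphatase that diverts sugar from glycolysis, was not well above background on any array.

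Probes of 1 gene did not always change together. In the fit over all 28267 probes above background, 25.6% were called. A dimmer probe of Ei24 had 606 and 549 with fluoxetine, against 324 and 336 in control, and rose by 0.81 ± 0.10 (adjusted p over all probes = 0.0183), where the brightest did not pass. A dimmer probe of Pidd1 had 100 and 95.2 with fluoxetine, against 190 and 164 in control, and fell by 0.86 on the log2 scale (SE 0.11, adjusted p over all probes = 0.0207). Both probes of Ccng2 rose. Trp53, Ccng1, Bbc3, Plk2, Plk3, Sfn and Gadd45g each had 1 probe, so no other probe could be set beside their change. With the mean of all probes of a gene in place of the brightest, Mdm2, Mdm4, Tnfrsf23 and Aen were not called, and Xpc and Ei24 were called higher. With every probe tested and the one of lowest p taken for each gene, Fas, Plk2 and Aen were not called. Xpc and Ei24 were then called higher and Pidd1 lower.

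**Figure D3:**
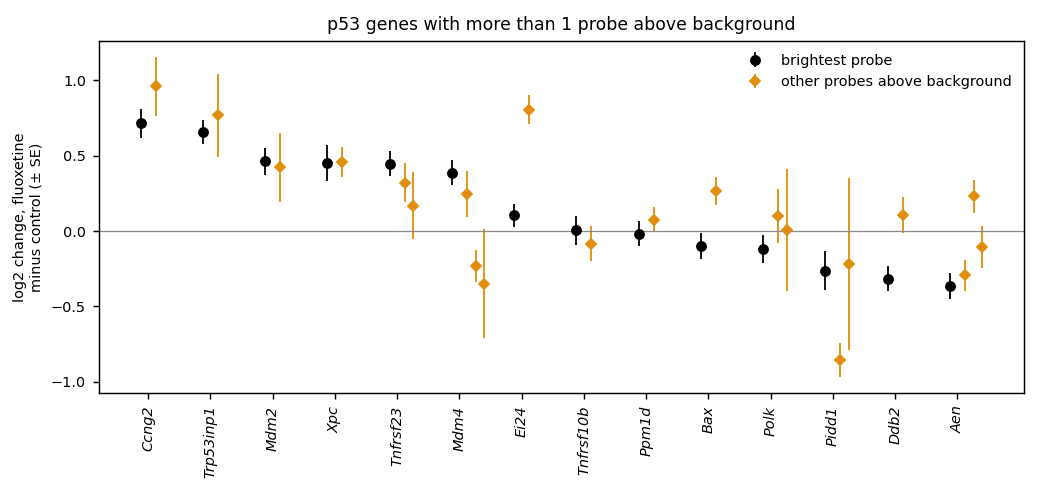
Log2 change, fluoxetine minus control (vertical axis), with its standard error for each probe of the p53 genes that had more than 1 probe above background; circles are the brightest probe and diamonds the others. The probes of Ccng2 both changed upward, and those of Mdm4, Bax, Ddb2 and Aen lay on both sides of 0.

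Genes around the list were counted in the same fit. Of 25 regulators and cofactors of p53, 2 rose, 6 fell and 17 did not pass, with a median change of −0.12. In either direction 32% were called, against 26.9% of all genes, of which 16.8% rose and 10.1% fell. Cdkn2a, the locus of the tumour suppressor ARF, which blocks MDM2, had 995 and 992 with fluoxetine, against 1678 and 1698 in control, and fell by 0.77 on the log2 scale (SE 0.07, adjusted p = 0.0128). Ep300, a p53 acetyltransferase gene, had 130 and 185 with fluoxetine, against 279 and 268 in control, and changed by −0.82 ± 0.19 (adjusted p = 0.0473). Ppp1r13b, which encodes a cofactor that steers p53 to apoptosis genes, was not well above background with fluoxetine, so it was tested only because of its control arrays and is 1 of the 6. It was at least 2.72-fold lower with fluoxetine when the lowest detectable signal stands for the dim arrays, and the fit on the measured values, not on this bound, gave an adjusted p of 0.0225. With this gene at its bound the median stayed at −0.12. Chek2, a kinase gene of the DNA damage response that activates p53, had 254 and 236 with fluoxetine, against 155 and 154 in control, and rose by 0.67 ± 0.08 (adjusted p = 0.0164). Crebbp also rose, with its other probe at −0.46, and Trp53bp2, Atr and Chek1 fell.

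Of 29 further p53 targets, 22 were tested: 6 rose, 2 fell and 14 did not pass, with a median of 0.08. In either direction 36.4% were called, against 26.9% of all genes (16.8% higher and 10.1% lower, median 0.06). Abcb1a, a multidrug pump gene, had 63.9 and 77.9 with fluoxetine, against 35.0 and 35.5 in control, and rose by 1.00 ± 0.12 (adjusted p = 0.0166). Sesn2, a stress-induced sestrin gene that ATF4 also activates, had 3132 and 2793 with fluoxetine, against 1602 and 1671 in control, and rose by 0.85 ± 0.09 (adjusted p = 0.0148). Steap3, Bcl6, Dcxr and Ak1 were the other 4 that rose. Tap1, a peptide transporter gene, had 44.4 and 72.0 with fluoxetine, against 129 and 132 in control, a change of −1.20 ± 0.25 (adjusted p = 0.0388), with its other probe at 0.26. Tgfa changed by −1.20 ± 0.46 and did not pass, and 1 of its fluoxetine arrays was well above background. Gdf15, Psrc1, Rprm, Thbs1, Ptp4a3 and Casp1 were at background on all arrays, and Kitlg had no matched probe.

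Of 19 genes of mitosis and replication that p53 lowers through p21, 1 rose, 1 fell and 17 did not pass, with a median of 0.09. In either direction 10.5% were called, against 26.9% of all genes (16.8% higher and 10.1% lower). The member that fell was Foxm1, a mitotic transcription factor gene, with 943 and 949 on the fluoxetine arrays, against 1324 and 1334 in control (−0.49 ± 0.07, adjusted p = 0.021). The member that rose was Bub1b, a spindle checkpoint gene (0.48 ± 0.11, adjusted p = 0.0432). Mcm5, a replication helicase gene (0.43 ± 0.14), did not pass.

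**Figure D4:**
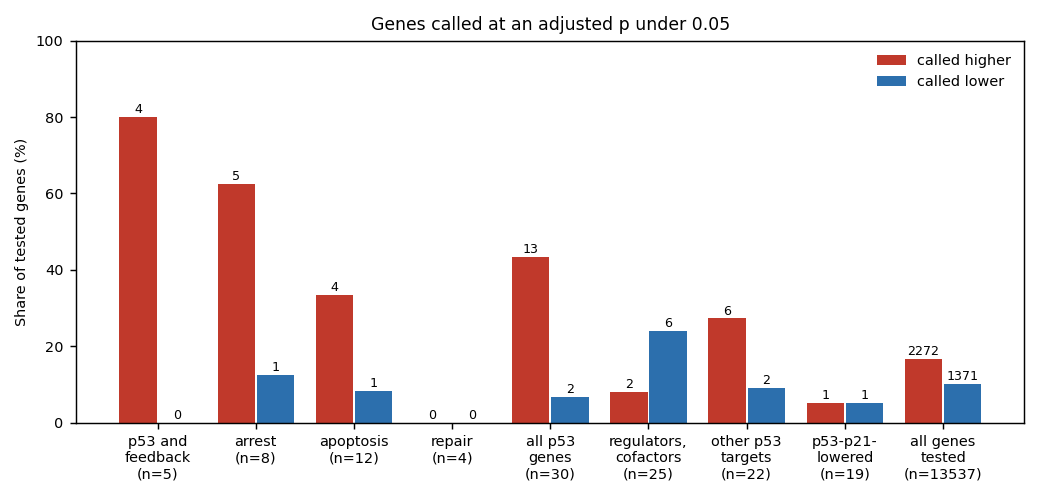
Share of tested genes called higher or lower with fluoxetine (bars, %; the number of genes called stands above each bar) in each role of the p53 list with over 1 tested gene, in the whole list, in 3 surrounding lists and in all genes tested. In the p53 list 13 of 30 were called higher, and among regulators and cofactors 2 of 25 were called higher and 6 lower. Over all genes tested 16.8% were called higher and 10.1% lower.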

How the data were processed

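The 4 RNA samples were read on Agilent mouse arrays with 1 dye. Per the file headers, the authors deposited the output of Agilent's Feature Extraction (version 12.1.0.3), and the intensity used is its background-corrected linear signal, not scaled between arrays. The raw median intensity of spot and background and the software's yes-or-no marks came from the same deposited files. No source used here names a later step.

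Control spots and spots marked non-uniform or outlying were left out, which removed 47 of 56605 probes, and repeated spots were averaged. Values were log2 of the processed intensity minus the 75th percentile of each array. Of the remaining probes, 34645 matched 1 symbol through RefSeq accessions without versions (GRCm38.p6). Probes entered the tests if the mark for well above background was set on the 2 arrays of either group. R 4.3.3 and limma 3.58.1 (lmFit, eBayes, group as the only term) gave the changes, with Benjamini-Hochberg adjustment, after a check on simulated data. An exact permutation test of 1 gene could not go below p = 0.333. Every p53 gene is named. Genes called or changed at least 1.5-fold get every array, and of each surrounding list the 4 largest changes are named with some others chosen after their values were seen. Some genes of these lists are counted but not reported here by name. The p53 genes and the lists were chosen with earlier results of these data known.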

Additional observations from a re-analysis of the deposited data

How the results depend on the processing

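The changes of the 15 called p53 genes kept their sign in all alternatives. The filters on dim probes, the intensity trend, the replicate blocks and the left-out arrays could not have altered that sign. As reported, 3643 genes were called in all, with 13 p53 genes higher and 2 lower. Scaling to the array median gave 6297 genes and 1 p53 gene lower, normexp on the median signal gave 1 lower and the mean of all probes gave 1 lower. Quantile normalization, the percentile over all spots, the filter for all 4 arrays and an intensity trend in eBayes each gave 3 lower, with Ddb2 called in these 4. With dim probes kept, limma called 0 genes, 0 p53 genes higher and 0 lower, with 5272 genes and 17 p53 genes at an unadjusted p under 0.05. As single arrays were left out the counts ran from 0 to 2666 genes, from 0 to 10 p53 genes higher and from 0 to 0 lower, and lone arrays were assumed to vary like the other group. With the replicate numbers as a replicate block, 1859 genes were called, 6 p53 genes higher (Trp53, Ccng1, Ccng2, Plk3, Trp53inp1 and Bbc3) and 0 lower. Equal numbers did not deviate together (correlation −0.117). With the numbers crossed, the replicate block gave 2671 genes, 10 p53 genes higher and 1 lower. Signs changed for 7 uncalled genes with small changes, and the cause was not tested. Under median scaling Bax was at 0.12, Polk at 0.10, Zmat3 at 0.078, Ppm1d at 0.20 and Rrm2b at 0.10, which follows from the common shift of 0.21. Under quantile normalization Phlda3 was at −0.014 and Tnfrsf10b at −0.034, and with normexp Phlda3 was at −0.014, Tnfrsf10b at −0.048, Zmat3 at 0.0075 and Ppm1d at 0.044. With the percentile over all spots Tnfrsf10b was at −0.027. With the mean of all probes Tnfrsf10b was at −0.039, Bax at 0.084 and Ppm1d at 0.029, and by the probe of lowest p they were at −0.083, 0.26 and 0.076. As single arrays were left out, Phlda3 ran from −0.011 to 0.081, Tnfrsf10b from −0.073 to 0.084, Ppm1d from −0.053 to 0.018 and Rrm2b from −0.34 to 0.10. The normexp on the median signal, the percentile over all spots and the crossed numbers were chosen after seeing the data. Normexp on the mean signal was not run, since the files used here hold the median signal in its place.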
